A study of Mus musculus with 24 samples.

Results

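The 10 transcripts described here encode cytokine and interferon receptor subunits: Il6ra and Il6st of the IL-6 receptor, Il10ra and Il10rb of the IL-10 receptor, Il4ra and Il13ra1 of the IL-4 and IL-13 receptors, Il17ra of the IL-17 receptor, Ifnar1 and Ifnar2 of the type I interferon receptor, and Ifngr1 of the interferon gamma receptor. They were taken by gene symbol from an RNA-seq table that lists 53715 mouse genes. The rule that picks them uses no measured value, but it was set with earlier results of these data known. All 10 were among the 11230 genes tested, which are those that reached a normalized count of 50 in 1 or more of the 24 libraries. The study compared monocytes sorted from the peripheral blood of C57BL/6 mice, wild type (wt) or Notch2 mutant (N2mut), after imiquimod (IMQ), an agonist of Toll-like receptor 7, or Sham treatment of the skin. The mice were 8 to 10 weeks old, and 50 mg of Aldara crème with 5% IMQ, or Vaseline as the Sham crème, was put on depilated skin each day for 4 to 5 days before blood was taken on day 5. The labels and the account of the treatment name a Sham crème, whereas the account of the RNA isolation calls the controls untreated. There were 6 groups of 4 libraries: wt Ly6Chi Sham, N2mut Ly6Chi Sham, wt Ly6Chi IMQ, N2mut Ly6Chi IMQ, wt Ly6Clo IMQ and N2mut Ly6Clo IMQ. No Ly6Clo monocytes from Sham mice were sequenced, so treatment was compared in Ly6Chi cells and the subsets were compared in IMQ mice. The mutants carried loxP-flanked Notch2 alleles that Cre, expressed from the Lyz2 locus of myeloid cells, deletes in part of the cells, and wt were littermate controls. Mutant and wt mice carried the Cx3cr1 gfp reporter, and the sort took GFP-positive, CD115-positive, MHC-II-negative cells, so each library holds sorted cells and not whole blood. The series calls the 4 libraries of a group biological replicates, and no source used here states whether each came from a separate mouse, so p-values measure the spread between these libraries.

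Most of these receptors are assembled from a chain that binds the cytokine and a partner chain, and the assembled receptor brings Janus kinases (Jak) together, which phosphorylate STAT factors. The IL-6 receptor differs in that Il6ra binds the cytokine and the kinases are carried by Il6st. Several chains are shared: Il6st (gp130) serves IL-6, IL-27, LIF and oncostatin M, Il10rb serves IL-10, IL-22 and the lambda interferons, and Il4ra pairs with Il2rg for IL-4 or with Il13ra1 for IL-4 and IL-13. Il17ra belongs to another family that signals through Traf3ip2 (Act1) and TRAF proteins and not through Jak and STAT. Ly6Chi monocytes are the inflammatory subset that enters tissues, and Ly6Clo monocytes patrol the vessel wall and arise from Ly6Chi cells with the help of Notch2.

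Values are normalized counts, that is read counts divided by a size factor for the library and rounded to whole numbers. The reads counted in genes per library, worked out from the steps between these whole numbers, were 9523000 to 19760000. Libraries 1 and 2 of every group bore library numbers of one series and libraries 3 and 4 those of another, with 14579000 to 19760000 and 9523000 to 15594000 reads. Notch2, the deleted gene, was lower in all N2mut libraries than in all wt libraries of the same cells: 8603 to 10165 against 13799 to 16214 in Ly6Chi Sham, 7240 to 8311 against 12656 to 14982 in Ly6Chi IMQ, and 9368 to 11518 against 16037 to 20005 in Ly6Clo IMQ. The sorted subsets carried their markers, with 4 Ly6Chi genes (Ly6c2, Ccr2, Vcan, Ly6c1) summing to 26147 to 48818 in Ly6Chi libraries, 356 to 1236 in wt Ly6Clo and 5733 to 8213 in N2mut Ly6Clo libraries. The sum of 7 Ly6Clo genes, which include Nr4a1, Ace and Treml4, was 157209 to 180173 in wt Ly6Clo, 88222 to 105222 in N2mut Ly6Clo and 21609 to 48689 in Ly6Chi libraries. The 5 T cell markers summed to at most 29, with Cd3e and Cd3g at 0 in all 24 libraries, and 5 NK cell markers to at most 73. The 5 B cell markers summed to 55 to 176, with 1 of 5 at 50 or more in each group. Markers of macrophages, dendritic cells and neutrophils are given beside the results they move with. The 5 platelet markers summed to 27 to 53 in N2mut Ly6Chi Sham and 74 to 130 in N2mut Ly6Chi IMQ libraries, and at most 273 in any library. The 5 erythroid markers summed to at most 372 in Sham libraries and at most 1543 in IMQ libraries, with 0 to 2 in the lowest library of each IMQ group, and the part of either in the results was not tested. In bulk libraries fewer cells of a type and less RNA per cell cannot be told apart.

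All 10 subunits were expressed in every library, and their lowest value was 456 (Il6st, wt Ly6Clo IMQ). On the scale of normalized counts per kb of merged exons, averaged over the 24 libraries, Ifngr1 had the highest level (3406 per kb), followed by Il10ra (2225), Il17ra (1277) and Il6ra (1078). Ifnar2 (573), Il13ra1 (413), Il4ra (359) and Ifnar1 (354) lay lower, and Il6st (223) and Il10rb (212) lowest. On this scale the ligand-binding chain was above its signalling partner for IL-6 and IL-10. The groups separated some subunits far more than others. Between the lowest and the highest of the 6 group means, Il6st differed 7.32-fold, Il13ra1 2.70-fold and Il10ra 1.76-fold, and the others at most 1.66-fold (Il10rb). On the log2 scale the range of group means was 2.87 for Il6st and 0.27 for Ifngr1, beside a median of 0.68 over all 11230 genes. The groups accounted for 97.9% of the variance of Il6st on the log2 scale and for 17.4% of that of Ifnar2, the lowest share.

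**Figure D1:**
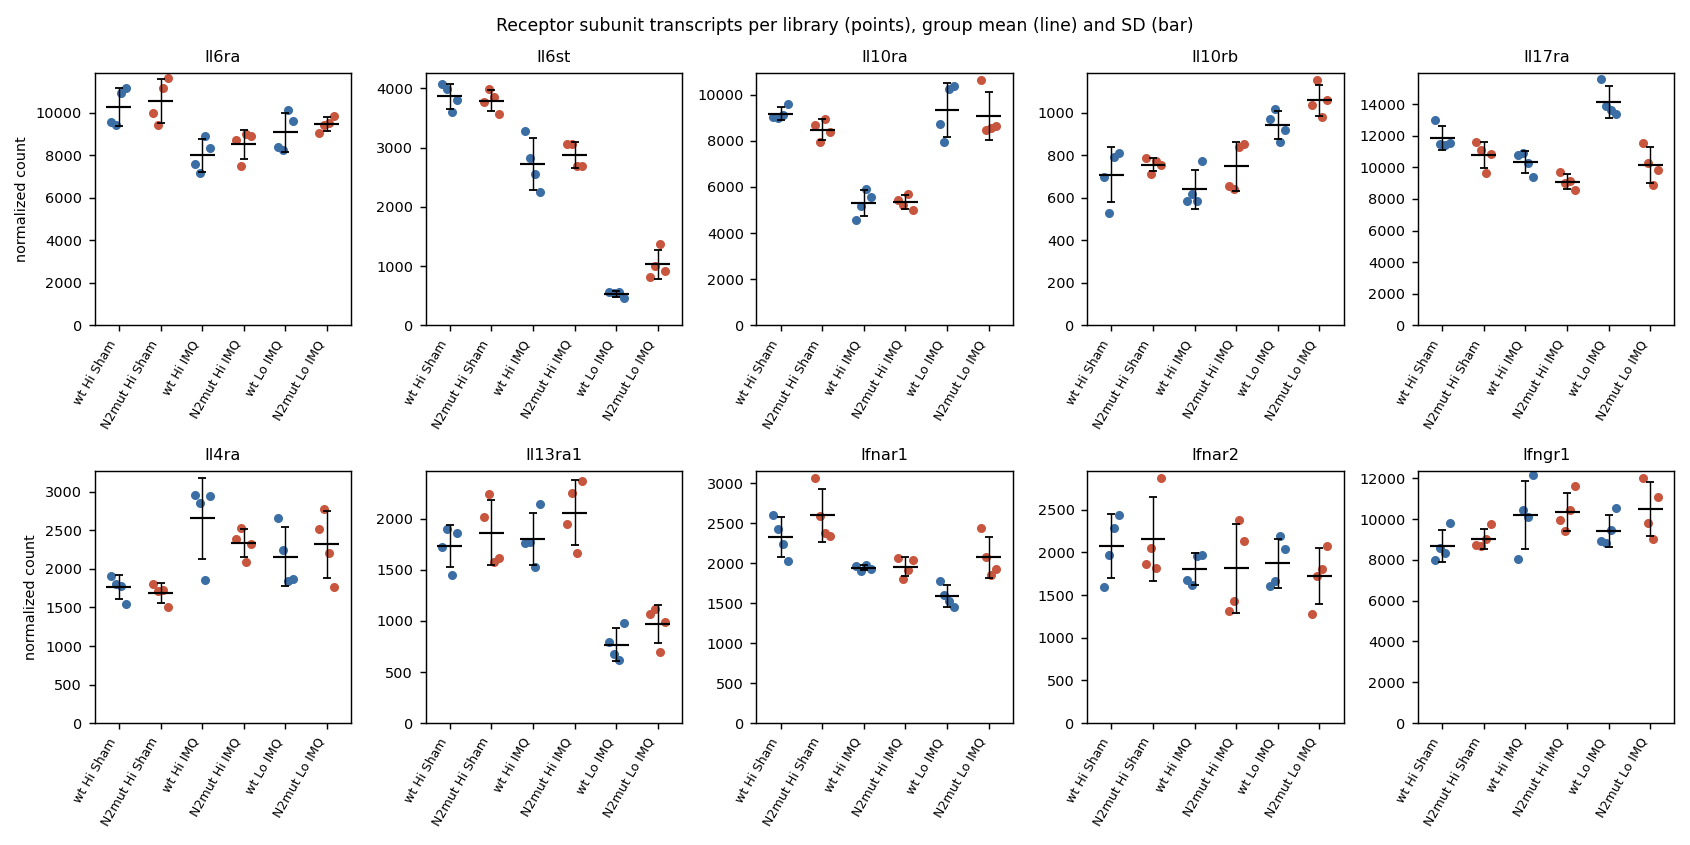
Normalized counts (linear axes from 0) of the 10 receptor subunits in every library of the 6 groups, where Hi and Lo stand for Ly6Chi and Ly6Clo, points are libraries (blue wt, red N2mut), lines are means and bars are SD (n = 4). Il6st and Il13ra1 drop in the Ly6Clo groups, Il10ra dips in both Ly6Chi IMQ groups, and Il17ra is highest in wt Ly6Clo.

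A difference was called when limma's adjusted p over the 11230 genes was at most 0.05 and the log2 difference was at least 0.6. With IMQ in wt Ly6Chi cells, 1 of 10 subunits was called lower and 0 higher, beside 5.07% and 4.43% of all tested genes, and 4 of 10 passed the adjusted p alone, beside 15.6%. In N2mut Ly6Chi cells 1 of 10 was called lower and 0 higher, beside 4.55% and 4.15% of the genes, and 4 of 10 passed the adjusted p alone, beside 13.7%. Between Ly6Clo and Ly6Chi cells of IMQ mice 2 were called lower and 1 higher in wt, beside 12.7% and 11.9% of the genes, and 2 lower and 1 higher in N2mut, beside 8.38% and 9.01%. The adjusted p alone was passed there by 6 of 10 in wt, beside 35.6%, and by 4 of 10 in N2mut, beside 24.9%. In Ly6Clo IMQ cells 1 subunit was called higher in N2mut than in wt and 0 lower, beside 3.12% and 1.67%, and 2 of 10 passed the adjusted p alone, beside 6.41%. In Ly6Chi cells limma called 0 of 10 between the genotypes with IMQ and 0 of 10 with Sham, beside 0.0267% and 0.0178% of all genes, and at an unadjusted p under 0.05 there were 1 and 0 of 10 subunits, beside 679 and 585 of the 11230 genes. Each subunit is 10% of the 10, so the counts rest on the single subunits described below. The median log2 difference of the 10 subunits was between -0.26 and 0.12 in the 7 comparisons, and that of all genes between -0.007 and 0.014. The 2 treatment comparisons share no library with each other, but each Ly6Chi IMQ group entered 3 comparisons and each other group 2, so the comparisons share libraries.

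**Figure D2:**
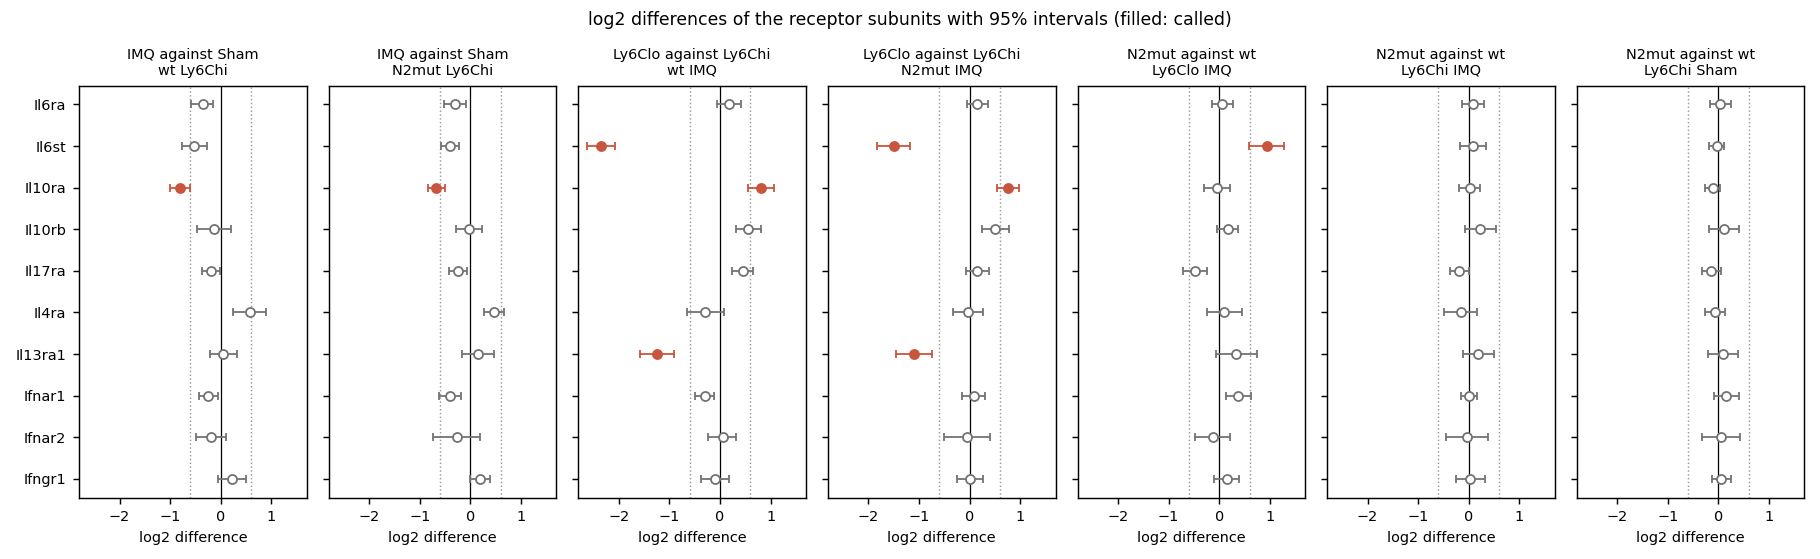
log2 differences of the 10 subunits in the 7 comparisons between 2 groups (first named minus second), with 95% intervals from limma, where filled red points are called and dotted lines mark differences of 0.6. Called subunits are Il10ra in both treatment comparisons, Il6st, Il13ra1 and Il10ra in both subset comparisons, and Il6st between genotypes in Ly6Clo cells.

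Il6st and Il13ra1 are the subunits with the widest ranges and were both called lower in Ly6Clo than in Ly6Chi cells of either genotype. Ifnar1 and Ifnar2 encode the 2 chains of 1 receptor and lie in the same gene cluster. The sequence around the start of these 4 genes, 250 bases before to 50 after, is shown for that reason from RefSeq (GRCm38.p6, the build of the expression table), with capitals for letters that match TTCNNNGAA, the core that STAT dimers bind.
Il6st, chr13:112463820-112464119, plus strand: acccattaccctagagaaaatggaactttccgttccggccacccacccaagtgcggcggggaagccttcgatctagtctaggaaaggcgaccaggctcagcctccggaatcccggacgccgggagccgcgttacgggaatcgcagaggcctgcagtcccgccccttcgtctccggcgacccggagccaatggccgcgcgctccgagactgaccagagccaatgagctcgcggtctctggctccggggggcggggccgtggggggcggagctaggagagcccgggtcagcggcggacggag
Il13ra1, chrX:36111858-36112157, plus strand: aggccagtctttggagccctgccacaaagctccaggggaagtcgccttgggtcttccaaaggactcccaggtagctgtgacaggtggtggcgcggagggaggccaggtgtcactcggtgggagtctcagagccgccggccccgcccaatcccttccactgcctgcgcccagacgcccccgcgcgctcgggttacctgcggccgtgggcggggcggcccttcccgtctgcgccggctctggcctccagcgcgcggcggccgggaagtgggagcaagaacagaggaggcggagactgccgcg
Ifnar1, chr16:91484965-91485264, plus strand: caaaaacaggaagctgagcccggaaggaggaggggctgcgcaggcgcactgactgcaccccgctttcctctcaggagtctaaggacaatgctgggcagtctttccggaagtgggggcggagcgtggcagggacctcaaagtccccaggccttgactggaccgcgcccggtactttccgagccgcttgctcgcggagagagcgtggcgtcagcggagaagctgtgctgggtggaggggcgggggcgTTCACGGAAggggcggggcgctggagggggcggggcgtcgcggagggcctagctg
Ifnar2, chr16:91372533-91372832, plus strand: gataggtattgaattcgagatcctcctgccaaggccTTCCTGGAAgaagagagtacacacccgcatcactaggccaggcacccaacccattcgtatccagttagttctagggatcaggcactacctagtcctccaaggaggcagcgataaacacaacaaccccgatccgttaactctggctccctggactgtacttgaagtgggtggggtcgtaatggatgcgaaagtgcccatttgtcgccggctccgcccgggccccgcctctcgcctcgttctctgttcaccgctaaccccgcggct
Of the 10 subunits, 7 were matched to a window, and Il10ra, Il10rb and Il17ra were not. The windows were searched on both strands for TTCNNNGAA, the interferon-stimulated response element (ISRE), TGGGAA (RBPJ, the DNA-binding partner of Notch), AAAGGTCA (NR4A factors) and TTGCNNAA (C/EBP factors), and the 3 matches found lay in 3 different windows. Ifnar1 held TTCACGGAA and Ifnar2 TTCCTGGAA, a kind of match found in 8.30% of 32851 windows. Il6ra held 1 TGGGAA, found in 25.6% of windows, and the other 4 windows held none of the 5 motifs. The other motifs were found in 3.44% (ISRE), 1.51% (AAAGGTCA) and 10.8% (TTGCNNAA) of all windows. A G or C made up 57 to 71% of the bases in the 7 windows, against a median of 52.7% over all windows.

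Il6st encodes gp130, the chain that passes on the signal of IL-6 and its relatives. In wt Ly6Chi cells its normalized counts were 4073, 3981, 3605 and 3802 with Sham and 3281, 2817, 2554 and 2252 with IMQ. In N2mut Ly6Chi cells they were 3762, 3996, 3854 and 3562 with Sham and 3062, 3053, 2685 and 2686 with IMQ. IMQ and Sham libraries did not overlap in either genotype, with every IMQ library below every Sham library. The log2 difference was -0.52 ± 0.11 (SE; limma adjusted p = 0.0100) in wt and -0.40 ± 0.08 (adjusted p = 0.00735) in N2mut, both under the size threshold of 0.6. The difference between these differences was 0.11 (95% interval -0.18 to 0.40).

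In Ly6Clo IMQ cells Il6st stood at 557, 547, 555 and 456 in wt and at 814, 1006, 1378 and 920 in N2mut. Both Ly6Clo groups lay below every Ly6Chi library, and every N2mut Ly6Clo library lay above every wt one. Against Ly6Chi IMQ cells Il6st was 5.12-fold lower in wt Ly6Clo cells (log2 difference -2.36, 95% interval -2.63 to -2.08, limma adjusted p = 5.68e-07) and 2.84-fold lower in N2mut Ly6Clo cells (-1.50, -1.83 to -1.18, adjusted p = 3.2e-05). Within Ly6Clo cells it was 1.91-fold higher in N2mut than in wt (0.94, 0.59 to 1.29, limma adjusted p = 0.00569), by 0.71 in library series 1 and 1.16 in series 2. Without the filter on low values the difference was the same and limma's adjusted p was 0.0743, which ends the call. In Ly6Chi cells the genotypes overlapped, with differences of 0.09 (-0.17 to 0.35) with IMQ and -0.03 (-0.18 to 0.12) with Sham. The genotype difference in Ly6Clo minus that in Ly6Chi IMQ cells was 0.85 (0.42 to 1.28, limma adjusted p = 0.0574), which missed the threshold, as did all 10 subunits (0 of 10 called, beside 1.03% of genes; 3 of 10 subunits and 936 of 11230 genes had an unadjusted p below 0.05). When libraries were blocked by replicate number, the adjusted p was 0.0109 and Il6st was called, beside 2.41% of all genes.

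Cell type markers moved with the higher Il6st of N2mut Ly6Clo cells. The 4 Ly6Chi markers summed to 5733 to 8213 there against 356 to 1236 in wt Ly6Clo cells, with 3 of 4 at 50 or more and Ly6c1 at 0 in both groups. The 6 macrophage markers (C1qa, C1qb, C1qc, Mertk, Cd5l, Siglec1) summed to 1814 to 2554 against 85 to 213, with 6 of 6 and 1 of 6 at 50 or more in 1 or more libraries and none at 0 in either group. The 6 dendritic cell markers summed to 212 to 1690 against 86 to 568. Between the subsets, 8 neutrophil markers summed to 36 to 311 in Ly6Clo and 3107 to 8591 in Ly6Chi IMQ libraries, with Ly6g at 0 in all of them. The macrophage markers summed to 146 to 477 in N2mut Ly6Chi IMQ and 1814 to 2554 in N2mut Ly6Clo libraries, and to 157 to 346 and 85 to 213 in wt. These sums stand beside the subset differences of Il6st, Il10ra, Il10rb, Il13ra1, Il17ra and Ifnar1, and their part in those was not tested. The part of these cells in the differences of Il6st was not tested.

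**Figure D3:**
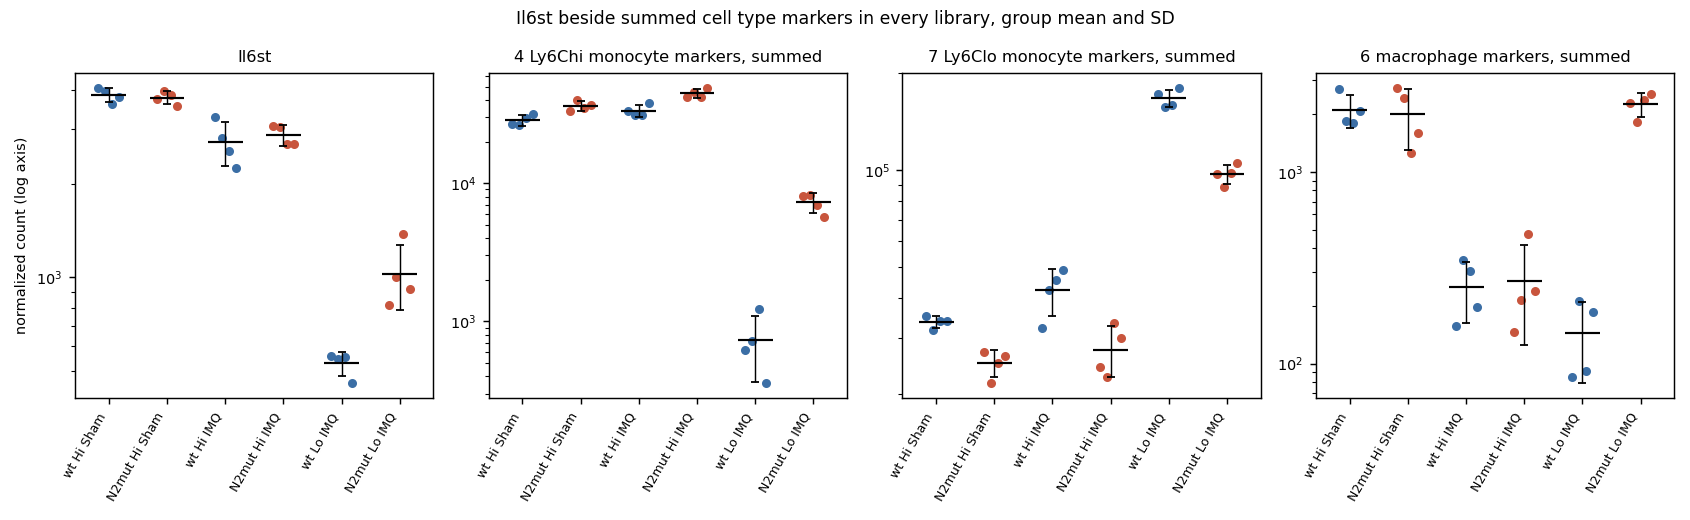
Normalized counts (log axes) of Il6st and of summed markers of Ly6Chi monocytes, Ly6Clo monocytes and macrophages in every library of the 6 groups, with points for libraries, lines for means and bars for SD (n = 4; Hi and Lo stand for Ly6Chi and Ly6Clo). N2mut Ly6Clo libraries lie above wt Ly6Clo libraries for Il6st, the Ly6Chi markers and the macrophage markers, and below them for the Ly6Clo markers.

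Il6ra, the chain that binds IL-6, differed little where Il6st differed most. Its counts were 9560, 9432, 10933 and 11165 in wt Ly6Chi Sham and 7585, 7163, 8924 and 8322 in wt Ly6Chi IMQ libraries. The IMQ libraries all lay below the Sham libraries, by -0.36 ± 0.10 (SE) on the log2 scale (limma adjusted p = 0.0292), under the size threshold. In N2mut cells, with 9423 to 11637 in Sham and 7509 to 8979 in IMQ libraries, the difference was -0.31 (95% interval -0.52 to -0.09, limma adjusted p = 0.0651). Ly6Clo libraries held 8246 to 10121 (wt) and 9041 to 9834 (N2mut), 0.18 and 0.15 above Ly6Chi IMQ libraries on the log2 scale. No comparison of subset or genotype passed without the block by replicate number. With it limma's adjusted p was 0.0312 between subsets in wt and 0.0161 with IMQ in N2mut, both under the size threshold. The groups accounted for 62.8% of the variance of Il6ra on the log2 scale. Of the variance left within groups 76.3% lay between the library series, with series 2 higher by 0.19. In the order of group means all neighbouring groups of Il6ra overlapped, whereas for Il6st only the 2 Sham groups and the 2 Ly6Chi IMQ groups did.

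Il10ra, which binds IL-10, was the only subunit called with IMQ and did so in both genotypes. The counts in wt Ly6Chi cells were 9021, 8977, 9115 and 9581 with Sham and 4556, 5182, 5913 and 5551 with IMQ. In N2mut Ly6Chi cells they were 8693, 7927, 8954 and 8377 with Sham and 5440, 5233, 5705 and 4983 with IMQ. The groups did not overlap, and every IMQ library lay well below every Sham library. Il10ra fell 1.74-fold in wt (log2 difference -0.80 ± 0.09 SE, limma adjusted p = 0.000326) and 1.59-fold in N2mut (-0.67 ± 0.08, adjusted p = 0.000432). The difference between the genotypes' responses was 0.13 (-0.11 to 0.36).

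In Ly6Clo IMQ cells Il10ra was at 8727, 7964, 10254 and 10371 in wt and 10623, 8479, 8550 and 8648 in N2mut. In the order of means the Ly6Clo and Sham groups each overlapped with their neighbour, and both Ly6Chi IMQ groups stood apart below them. Against Ly6Chi IMQ cells Il10ra was 1.76-fold higher in wt Ly6Clo (log2 difference 0.81, 0.55 to 1.07, limma adjusted p = 0.000322) and 1.69-fold higher in N2mut Ly6Clo cells (0.76, 0.54 to 0.98, adjusted p = 0.000305). The libraries of the genotypes overlapped in Ly6Clo cells (-0.04, -0.30 to 0.22). In Ly6Chi Sham cells the libraries of the genotypes did not overlap, all N2mut libraries being lower (log2 difference -0.11, -0.26 to 0.04, limma adjusted p = 0.937), and an exact two-sided permutation test gave p = 0.0286, the smallest that 4 against 4 libraries allow. In the same libraries the Ly6Clo markers summed to 31789 to 35027 in wt and 21609 to 27055 in N2mut. The Ly6Chi markers summed to 26147 to 31397 and 33217 to 39980, and the part of these markers was not tested.

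Il10rb, the shared signalling chain, was at 585, 620, 583 and 775 in wt Ly6Chi IMQ and at 970, 1017, 861 and 920 in wt Ly6Clo libraries. The N2mut libraries held 658, 640, 841 and 854 in Ly6Chi IMQ and 1038, 1155, 982 and 1059 in Ly6Clo. Every Ly6Clo library lay above every Ly6Chi IMQ library of its genotype. The log2 differences of 0.56 (0.31 to 0.82, limma adjusted p = 0.00316) and 0.51 (0.24 to 0.78, adjusted p = 0.0115) passed the adjusted p but not the size threshold. They were larger within library series 1 (0.72 and 0.75) than within series 2 (0.40 and 0.27). With IMQ against Sham the differences were -0.13 and -0.03, with intervals that span 0. Of its exon bases 14.9% are shared with RP23-190G10.4, a gene listed at 0 in all libraries that also covers 9.46% of Ifnar2, and how reads from shared bases were assigned is not given in the sources used here.

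Il13ra1, which joins Il4ra to form the IL-13 receptor, was lower in Ly6Clo cells. Its counts were 1765, 1777, 1529 and 2147 in wt Ly6Chi IMQ and 797, 673, 618 and 984 in wt Ly6Clo libraries. In N2mut they were 1948, 2253, 1665 and 2374 in Ly6Chi IMQ and 1072, 1116, 696 and 994 in Ly6Clo libraries. The subsets did not overlap in either genotype. Il13ra1 was 2.37-fold lower in wt Ly6Clo (log2 difference -1.24, -1.58 to -0.90, limma adjusted p = 0.000113) and 2.14-fold lower in N2mut Ly6Clo cells (-1.10, -1.46 to -0.74, adjusted p = 0.000604). Between genotypes in Ly6Clo cells the libraries overlapped (0.34, -0.07 to 0.74, limma adjusted p = 0.349), with 0.58 in library series 1 and 0.09 in series 2. IMQ made a difference of 0.05 in wt and 0.15 in N2mut Ly6Chi cells, with intervals that span 0.

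Il4ra, the chain common to the IL-4 and IL-13 receptors, was the subunit with the largest positive difference after IMQ. Its counts in wt Ly6Chi cells were 1910, 1807, 1783 and 1549 with Sham and 2957, 2857, 1860 and 2940 with IMQ. In N2mut Ly6Chi cells they were 1810, 1716, 1732 and 1501 with Sham and 2386, 2530, 2091 and 2327 with IMQ. IMQ libraries lay above all Sham libraries in N2mut, and in wt 3 of 4 did, since wt Ly6Chi IMQ library 3 fell among the Sham values. The log2 differences were 0.57 (0.25 to 0.89, limma adjusted p = 0.0238) and 0.47 (0.27 to 0.66, adjusted p = 0.00660), both under the size threshold. Without that library the wt difference was 0.73 and was called (adjusted p = 0.000832), and without wt Ly6Chi Sham library 1 it was 0.61 (adjusted p = 0.0395) and also called. Ly6Clo libraries held 1839 to 2658 in wt and 1769 to 2773 in N2mut and overlapped Ly6Chi IMQ libraries. Il2rg, the partner of Il4ra in the receptor that binds IL-4 alone, was at 326 to 816 over all libraries and was called in no comparison. A stretch of 571 exon bases of Il4ra (9.51%) is shared with a gene on the other strand, which had at most 6 counts, and use of the strand in counting is not given in the sources used here.

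Il17ra, the common chain of IL-17 receptors, was highest in wt Ly6Clo cells. The counts there were 15597, 13899, 13631 and 13366, against 10806, 10926, 10289 and 9401 in wt Ly6Chi IMQ libraries. N2mut libraries held 11554, 10285, 8880 and 9855 in Ly6Clo and 9688, 8998, 9125 and 8556 in Ly6Chi IMQ. The wt Ly6Clo libraries lay above all other 20 libraries, and the N2mut Ly6Clo libraries overlapped with Ly6Chi cells. Il17ra was 1.36-fold higher in wt Ly6Clo than in wt Ly6Chi IMQ cells (log2 difference 0.45, 0.24 to 0.65, limma adjusted p = 0.00348) and 1.40-fold lower in N2mut than in wt Ly6Clo cells (-0.48, -0.71 to -0.25, adjusted p = 0.0216), both under the size threshold. In N2mut the subset difference was 0.15 (-0.07 to 0.38), and the test of the difference between the genotypes gave -0.29 (-0.57 to -0.02, limma adjusted p = 0.528). The sums of Ly6Chi and macrophage markers given for Il6st moved with the lower Il17ra of N2mut Ly6Clo cells, and their part was not tested. With IMQ the differences in Ly6Chi cells were -0.20 (-0.38 to -0.01, limma adjusted p = 0.153) in wt, where Sham libraries (11413 to 12973) all lay above IMQ libraries, and -0.24 (-0.43 to -0.06, adjusted p = 0.0884) in N2mut. Il17rc, which pairs with Il17ra to bind IL-17A, had at most 22 counts in any library and was not tested.

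Ifnar1 and Ifnar2 bind type I interferons, Ifnar2 with high affinity, and lie with Il10rb and Ifngr2 in a stretch of 192 kb on chromosome 16 (91372783 to 91565169 in GRCm38). Gaps between neighbours were 0.574 kb from Ifnar2 to Il10rb, 59.4 kb from Il10rb to Ifnar1 and 39.6 kb from Ifnar1 to Ifngr2. Ifnar1 was at 2605, 2421, 2236 and 2030 in wt Ly6Chi Sham and at 1968, 1906, 1977 and 1928 in wt Ly6Chi IMQ libraries. In N2mut it was at 3069, 2593, 2379 and 2344 with Sham and 2058, 1807, 1912 and 2038 with IMQ. The IMQ libraries lay below the Sham libraries in both genotypes, by -0.25 (-0.44 to -0.06, limma adjusted p = 0.0789) in wt and -0.40 (-0.62 to -0.18, adjusted p = 0.0224) in N2mut. In Ly6Clo cells Ifnar1 was at 1774, 1603, 1521 and 1446 in wt and 2433, 2081, 1849 and 1926 in N2mut libraries, which did not overlap. Against Ly6Chi IMQ cells Ifnar1 was lower in all wt Ly6Clo libraries (log2 difference -0.30, -0.49 to -0.11, limma adjusted p = 0.0210), under the size threshold, and the N2mut subsets overlapped (0.08, -0.15 to 0.31, adjusted p = 0.634). The genotype difference of 0.38 (0.14 to 0.62) missed the adjusted p in limma (0.0708), and passed it with the replicate block (0.00310) without reaching the size threshold. Its difference from the genotype effect in Ly6Chi IMQ cells was 0.38 (0.10 to 0.65, limma adjusted p = 0.288).

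Ifnar2 varied more between libraries than between groups. Its values ran from 1283 to 2875, all neighbouring groups overlapped, and no comparison passed. Series 2 was 0.39 above series 1 on the log2 scale, which made up 61.7% of the variance within groups. Ifnar2 had the widest spread of the 10, with a pooled SD within groups of 0.29 on the log2 scale against 0.14 for Ifnar1.

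Ifngr1, the chain that binds interferon gamma, was the most abundant subunit per kb and the most even. Its counts ran from 8008 to 12138, neighbouring group means overlapped throughout, and no comparison passed without the replicate block. With the block limma's adjusted p was 0.0436 with IMQ in wt, under the size threshold. With IMQ the log2 differences in Ly6Chi cells were 0.22 (-0.05 to 0.49) in wt and 0.19 ± 0.09 (SE, limma adjusted p = 0.192) in N2mut. Ifngr2, its partner and no member of the 10, went the other way without being called, with 2793 to 3256 in wt Ly6Chi Sham and 2197 to 2447 in wt Ly6Chi IMQ libraries (log2 difference -0.31, limma adjusted p = 0.0215), and with -0.31 also in N2mut (adjusted p = 0.0507).

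Within a receptor the balance of the partner chains was compared as the log2 ratio of their counts in each library, which cancels the size factor. The ratios covered 6 pairs in 7 comparisons, that is 42 exact two-sided permutation tests. In 9 of the 42 the groups did not overlap, each with p = 0.0286, the smallest this exact test can give, and after adjustment over the 42 tests the smallest adjusted p was 0.133, so 0 of 42 passed 0.05. Il6ra exceeded Il6st 2.67-fold to 3.01-fold in the 4 Ly6Chi groups, 17.3-fold ± 2.89 (SD, n = 4) in wt Ly6Clo and 9.52-fold ± 1.89 in N2mut Ly6Clo libraries. All wt Ly6Clo libraries (15.0-fold to 21.0-fold) lay above all N2mut Ly6Clo libraries (6.91-fold to 11.1-fold). The log2 ratio of Il10ra to Il10rb was 3.71 ± 0.26 (SD) in wt and 3.49 ± 0.03 in N2mut Ly6Chi Sham libraries, and 3.05 ± 0.21 and 2.84 ± 0.24 in the IMQ libraries, with no overlap in either genotype. The ratio of Il4ra to Il13ra1 was 1.47 ± 0.213 in wt Ly6Chi IMQ and 2.89 ± 0.678 in wt Ly6Clo libraries, and 1.15 ± 0.124 and 2.45 ± 0.574 in N2mut. Ifngr1 exceeded Ifngr2 2.98-fold ± 0.378 in wt Ly6Chi Sham and 4.31-fold ± 0.567 in wt Ly6Chi IMQ libraries, and 2.80-fold ± 0.297 and 3.95-fold ± 0.298 in N2mut. Ratios of Ifnar1 to Ifnar2 and of Il4ra to Il2rg overlapped in all comparisons. The tests took no account of replicate number. In its order the log2 ratio of Ifnar1 to Ifnar2 was 0.14, -0.05, -0.53 and -0.50 in wt Ly6Clo libraries. In N2mut Ly6Clo libraries it was 0.92, 0.27, 0.03 and -0.10, each above the same-numbered wt library, and this pairing was not tested.

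**Figure D4:**
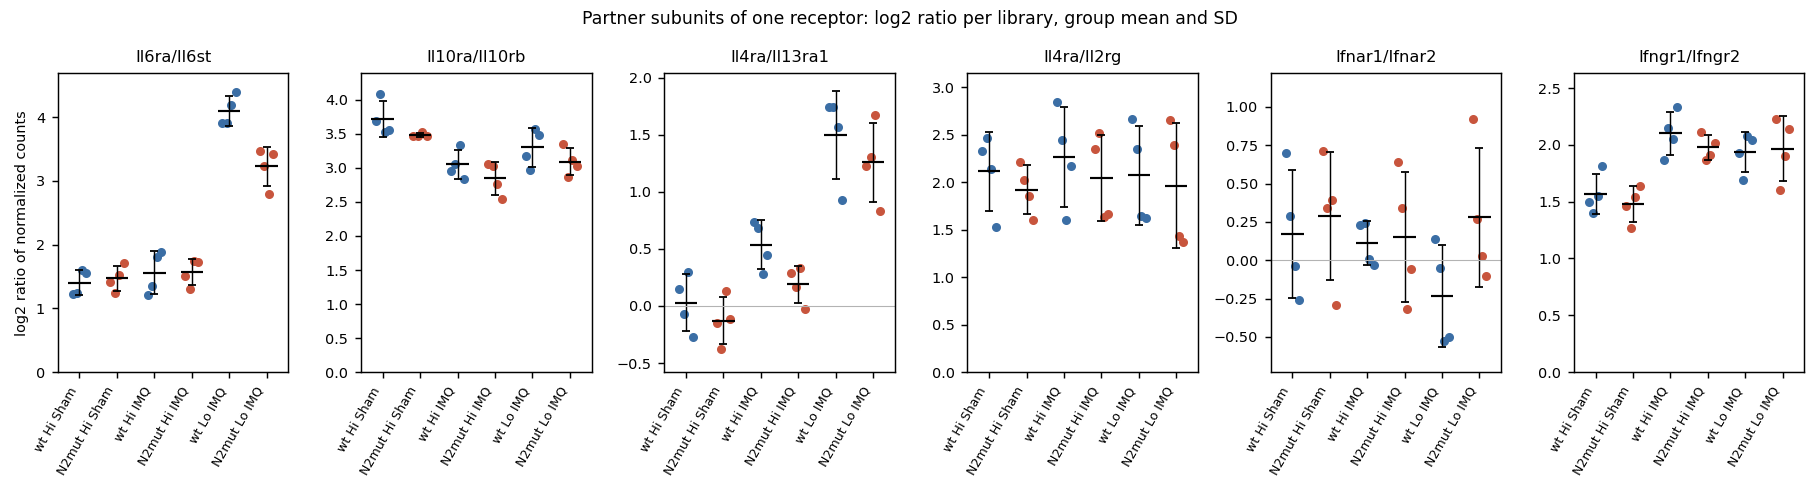
log2 ratios of normalized counts of partner subunits in every library of the 6 groups (points), with group means (lines) and SD (bars, n = 4; Hi and Lo stand for Ly6Chi and Ly6Clo; blue wt, red N2mut). Il6ra/Il6st and Il4ra/Il13ra1 are highest in the Ly6Clo groups, Il10ra/Il10rb is lower and Ifngr1/Ifngr2 higher with IMQ, and the interferon alpha receptor ratio spreads within groups.

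Over the 24 libraries the genes whose log2 values followed Il6st most closely were Dpy19l1 (Pearson r = 0.987), Fgl2 (0.987), Tns3 (0.984), Abca6 (0.982) and Parp1 (0.980). Those closest to Il13ra1 were Emb (0.946), Spcs2 (0.937), Eef2 (0.932), Mmp8 (0.929) and Thbs1 (0.927). Those closest to Il10ra were Fam46a (0.931), Zcchc11 (0.931), Eml6 (0.927), Zeb1 (0.920) and Fndc3a (0.917). These correlations are descriptions that rest mainly on the 6 group means, and the genes of a library share its size factor. After the group means were removed, some subunits still varied together over the 24 libraries, such as Il17ra with Ifnar1 (r = 0.73) and Il6ra with Ifnar2 (0.68), and others in opposite directions, such as Il6st with Ifngr1 (-0.83). On the log2 scale series 2 minus series 1 was 0.19 for Il6ra, 0.39 for Ifnar2 and 0.12 for Ifngr1, and -0.13 for Il17ra, -0.15 for Ifnar1 and -0.09 for Il6st, and the part of the series in these correlations was not tested.

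Other genes of these pathways were counted from lists of known receptors, signalling factors and targets. The shares of all tested genes called higher and lower, against which these counts are read, were 4.43% and 5.07% with IMQ in wt, 4.15% and 4.55% with IMQ in N2mut, 11.9% and 12.7% between subsets in wt, 9.01% and 8.38% between subsets in N2mut, and 3.12% and 1.67% between genotypes in Ly6Clo cells. Type I interferon targets had the widest response: 9 of 10 were called lower with IMQ in wt and 9 of 10 in N2mut Ly6Chi cells, with a median log2 difference of -2.32 and -2.34 beside 0.014 and 0.005 over all genes. Ifit3, an antiviral protein, averaged 1257 in wt Ly6Chi Sham and 105 in wt Ly6Chi IMQ libraries (log2 difference -3.83), Rsad2 (viperin) 890 and 106 (-3.43), and Ifit2 2212 and 332 (-3.01). Usp18, which binds Ifnar2 and blocks its signal, averaged 1305 and 264 (-2.39). Stat2, which carries the signal of the type I interferon receptor, was called lower in both genotypes and averaged 4068 in wt Ly6Chi Sham and 1317 in wt Ly6Chi IMQ libraries (log2 difference -1.65). Of 7 tested interferon gamma targets, 4 were called lower with IMQ in each genotype, among them Cxcl10 (166 and 14.5 in wt, log2 difference -3.61) and Ciita (1125 and 418, -1.46). The receptor subunits themselves differed far less, since Ifnar1 was at -0.25, Ifnar2 at -0.19 and Ifngr1 at 0.22 in the same wt libraries. The macrophage markers summed to 1249 to 2737 in Ly6Chi Sham and 146 to 477 in Ly6Chi IMQ libraries. In each Sham group only 1 of these 6 markers reached 50 in any library, and Cd5l was at 0. The dendritic cell markers summed to 823 to 1687 and 270 to 531. The 8 neutrophil markers summed to 708 to 1388 in Ly6Chi Sham and 3107 to 8591 in Ly6Chi IMQ libraries, where Ly6g was at 0. The part of these markers in the differences with IMQ was not tested.

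Socs3 is the feedback inhibitor that binds gp130. It averaged 804 in wt and 572 in N2mut Ly6Chi Sham, 2349 in wt Ly6Chi IMQ and 5078 in wt Ly6Clo libraries, and it was called higher with IMQ (log2 difference 1.53) and in Ly6Clo cells (1.13) and lower in N2mut than in wt Ly6Clo cells (-0.80, limma adjusted p = 0.000437). Of the 8 STAT3 targets, which include Socs3, 1 was called higher with IMQ in wt and 2 in N2mut (Socs3 and Nfil3), and 0 lower. The median log2 difference of the 8 with IMQ was -0.32 in wt and -0.21 in N2mut, beside 0.014 and 0.005 over all genes. Bcl3 was called lower in Ly6Clo cells of both genotypes (-1.30 and -0.79). Among 15 tested receptor subunits outside the 10, Lifr, which pairs with Il6st to bind LIF, was called higher in Ly6Clo cells where Il6st was lower (1160 in wt Ly6Chi IMQ, 6224 in wt Ly6Clo, log2 difference 2.42) and lower in N2mut than in wt Ly6Clo cells (4046, -0.62, limma adjusted p = 0.0426). Il21r rose from 24.5 to 144 with IMQ and to 952 in wt Ly6Clo libraries, Il12rb2 fell from 229 to 81 with IMQ, and Csf2rb2 fell from 1074 to 318 between wt Ly6Chi IMQ and Ly6Clo libraries. Counting all 15, 1 was called higher and 1 lower with IMQ in each genotype, 3 higher and 2 lower in wt Ly6Clo cells, and 3 higher and 3 lower in N2mut Ly6Clo cells.

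Of 11 Jak kinases, STAT factors and their partner Irf9, Jak2 was called higher in Ly6Clo cells of both genotypes (0.70 and 0.66). Tyk2 (-1.06 and -0.86) and Stat2 (-0.98 and -0.67) were called lower, and Stat3 higher in wt (0.69). In all, 2 were called higher and 3 lower in wt Ly6Clo cells, and 1 higher and 3 lower in N2mut Ly6Clo cells. Between genotypes in Ly6Clo cells 0 of 11 were called by limma. Of 16 tested feedback inhibitors 1 was called higher and 3 lower with IMQ in each genotype, and 3 higher and 2 lower in Ly6Clo cells of each genotype. Socs6 was called lower in Ly6Clo cells (-1.25 in wt) and higher in N2mut than in wt Ly6Clo cells (0.87). Of 11 tested genes of IL-17 receptor signalling, Nfkbiz was called higher (1.77 in wt) and Arid5a (-1.50 and -1.21) and Cebpd (-0.99 and -0.78) lower in Ly6Clo cells, and Tnfaip3 lower with IMQ (-1.06 and -1.09) and higher in wt Ly6Clo cells (0.85, limma adjusted p = 0.0309). In all, 3 of the 11 were called higher and 2 lower in wt Ly6Clo cells, 1 higher and 2 lower in N2mut Ly6Clo cells, and 2 and 1 lower with IMQ in wt and N2mut. Of 5 tested STAT6 targets, Chil3 was called higher with IMQ (1768 and 9962 in wt, 2.45), while Mrc1 (608 and 60.5, -3.34) was called lower. In N2mut against wt Ly6Clo cells 3 of these 5 were called higher, among them Mrc1 (89.2 against 8.25, 3.32) and Chil3 (3051 against 1565, 0.98), while Il4ra overlapped between the genotypes. In the same comparison the macrophage markers summed to 1814 to 2554 in N2mut and 85 to 213 in wt and the Ly6Chi markers to 5733 to 8213 and 356 to 1236, and their part in the genotype differences of Ifnar1, Socs3, Lifr, Socs6 and the STAT6 targets in Ly6Clo cells was not tested. Between subsets in wt, 2 of the 5 STAT6 targets were called higher and 3 lower in Ly6Clo cells. Their median log2 difference was -1.77, beside -0.007 over all genes. The 2 higher were Pdcd1lg2 (mean 196.5 in wt Ly6Clo and 4.75 in wt Ly6Chi IMQ libraries) and Cdh1 (103 and 20.8). Mrc1 and Chil3 were among the 3 lower. In N2mut Ly6Clo cells 2 were called higher and 1 lower, with a median of 0.32. Only 3 of 19 ligands were tested, and Ebi3 and Il27, the chains of IL-27, were called higher in Ly6Clo cells of both genotypes (Ebi3 1.52 and 1.09, Il27 1.13 and 0.82). Of 3 tested shedding proteases 0 were called in any of the 7 comparisons by limma. With the replicate block the number of called genes rose by more than 1.5 times with IMQ in wt for STAT3 targets (1 and 2) and ligands (0 and 1), for type I interferon targets between subsets in N2mut (3 and 7), and in N2mut against wt Ly6Clo cells for interferon gamma targets (0 and 2), STAT3 targets (1 and 2) and other receptor subunits (1 and 2).

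**Figure D5:**
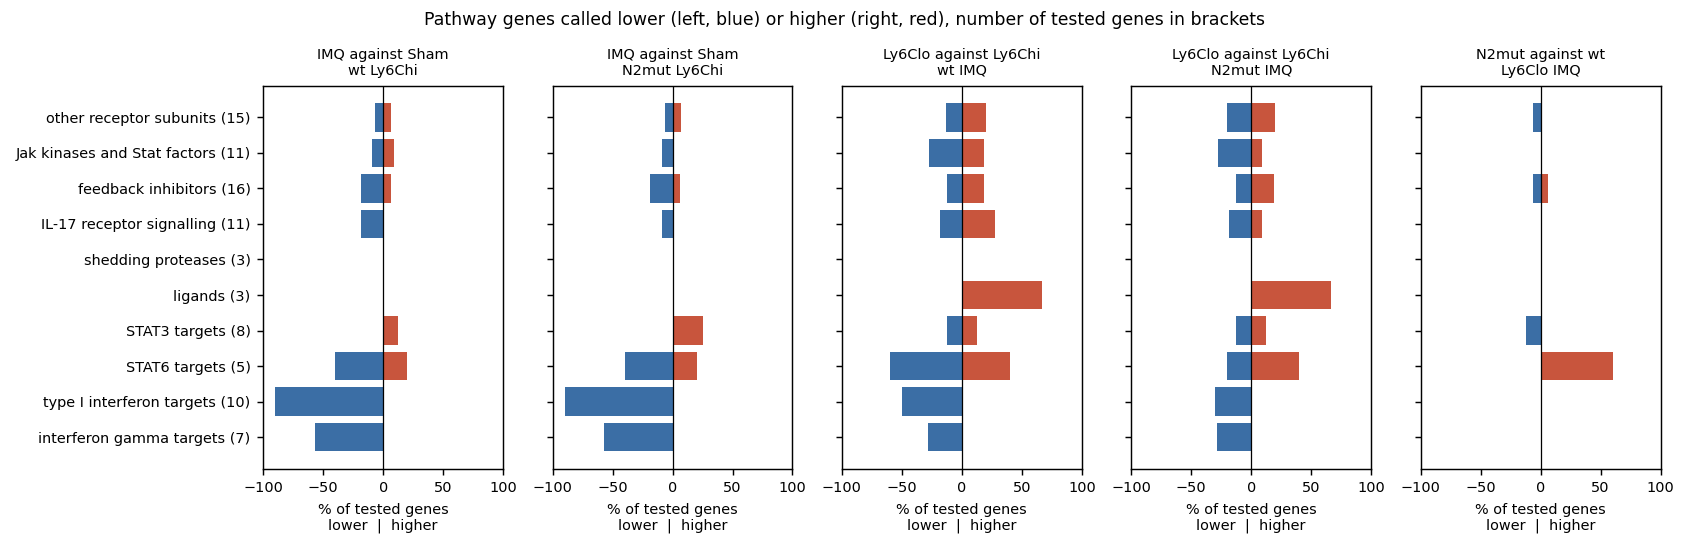
Share of the tested genes of each pathway list called lower (blue, left) or higher (red, right) in 5 comparisons, with the number of tested genes in brackets. Type I interferon targets were called lower with IMQ in 9 of 10 cases in each genotype, and STAT6 targets were called higher in N2mut Ly6Clo cells in 3 of 5.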

How the data were processed

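The libraries were made from total RNA of sorted blood monocytes with a stranded pico-input kit. Per the labels and the study's methods, the authors trimmed reads with Trim Galore 0.4.4, aligned them with STAR 2.5.3a to GRCm38.p6, counted them per gene and normalized them with DESeq2. The deposited values were treated as a score: the counts divided by the size factors and rounded to whole numbers, so that no count model was used. Mean, fold change and p columns of the authors' own comparison were not used. The counting tool and its use of strand are not given in the sources used here.

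Sums of the values were 13273508 to 14651770. Reads counted in genes were inferred from the steps between whole numbers, with an error of at most 0.017% in 8 simulated libraries. These were made with the same scaling and rounding that the inference assumes, so the error in the real libraries is not known. At most 1.57% of tested genes had equal values in any 2 libraries. Genes that reached 50 in 1 or more libraries were tested with limma 3.58.1 (R 4.3.3; trended variance) on log2(value + 1), on the 8 libraries of 2 groups or the 16 of an interaction, with Benjamini-Hochberg adjustment over 11230 genes. log2 differences are on this scale, which understates changes of low genes. Partner ratios were tested with exact permutation tests over 70 splits (smallest p 0.0286). In simulated data with 200 genes changed 2.5-fold among 11230, the comparison of IMQ with Sham in wt recovered 189 and called 10 others, and the interaction of genotype and subset recovered 95. The simulation drew libraries independently, held the spread of each gene within set bounds and changed only genes above a set mean level. It therefore does not give the share of true changes recovered in the real libraries.

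The members and the gene lists were chosen with earlier results of these data known. All 10 members are described. A gene of the marker lists and a gene of the pathway lists are not reported here and were left out of the sums and counts of their lists. From the lists, the genes named are partner subunits and up to 4 per list with the largest differences among those called, and likeness is given for the 3 members with the widest range of group means. Libraries with the same replicate number deviated together: over tested genes, the deviations of same-numbered libraries from their group means correlated at 0.160 to 0.619 in all 28 pairs. Same-numbered libraries also share a library series, so these correlations do not separate the number from the series. Pairs of different genotype, which cannot be the same mouse, reached 0.619. The labels do not say that a number marks the same mouse. A fit with the number as a block is given where it changed a call. Alternatives were other pseudocounts, filters and scalings, no trend, the block, library series as a covariate or alone, 1 fit of all 24 libraries, and leaving out each library.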

Additional observations from a re-analysis of the deposited data

Results flagged for a closer look

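In 4 of the 60 sets of 4 libraries (10 subunits in 6 groups), 1 library stood apart from the other 3 by more than Dixon's 95% critical value for the gap over the range, and chance gives about 1 in 20. Il6st was lowest at 456 in wt Ly6Clo IMQ library 4, against 547 to 557 in the others. Il10ra was highest at 10623 in N2mut Ly6Clo IMQ library 1, against 8479 to 8648. Il17ra was highest at 12973 in wt Ly6Chi Sham library 1, against 11413 to 11567. Il4ra was lowest at 1860 in wt Ly6Chi IMQ library 3, against 2857 to 2957, and without this library Il4ra was called with IMQ in wt cells (0.73), as it also was without wt Ly6Chi Sham library 1 (0.61). No library was flagged for more than 1 subunit.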

How the results depend on the processing

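The calls of Il10ra with IMQ and of Il6st, Il13ra1 and Il10ra between subsets were made in all 20 alternatives of each comparison, with log2 differences of -0.89 to -0.71 and -0.70 to -0.64 for Il10ra with IMQ and of -2.46 to -2.25 and -1.76 to -1.25 for Il6st between subsets (wt and N2mut). The higher Il6st of N2mut Ly6Clo cells was called in 19 of 20 (0.71 to 1.16, adjusted p 1.12e-05 to 0.0743), and without a filter on low values its adjusted p was 0.0743, leaving 0 subunits called. No called difference changed sign, and 84 of 1960 recomputed differences did so without being called in either fit. With IMQ in wt cells 2 subunits were called within library series 1 (Il4ra, 0.65) and within series 2 (Il6st, -0.63). Leaving out 1 library gave 1 to 2: Il4ra was added without Sham library 1 (0.61) or IMQ library 3 (0.73), and Il6st without IMQ library 1 (-0.61). For the interaction of genotype and subset, 1 subunit (Il6st, 0.85) was called with the replicate block, with library series as a covariate (adjusted p = 0.0210) and in 1 fit of all 24 libraries (0.00832). Leaving out 1 library gave 0 to 1, with Il6st called without wt Ly6Chi IMQ library 4 (0.94) or N2mut Ly6Clo IMQ library 1 (0.95). Over its 28 alternatives its adjusted p was 0.00832 to 0.291. Il10rb between subsets in wt was called without wt Ly6Chi IMQ library 4 (0.66) or wt Ly6Clo IMQ library 3 (0.60), and within series 1 in both genotypes (0.72 and 0.75). Differences that passed the adjusted p alone lost it in up to 9 of 20 alternatives (Il4ra with IMQ in wt, Il17ra between genotypes in Ly6Clo cells). The replicate block changed no other call of the 10 subunits, but over all genes it raised the calls from 537 to 939 in N2mut against wt Ly6Clo cells, from 3 to 54 in Ly6Chi IMQ cells and from 116 to 271 for the interaction. The interaction of genotype and treatment gave 0 called genes of 11230 (0%), with 177 at an unadjusted p under 0.05. In simulated data with independent libraries, 4 to a group, 180 of 200 changes of 2.5-fold were recovered between genotypes in Ly6Clo cells. For the interaction with subset 95 of 200 were recovered, and the real libraries differ from this setting.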
